A study of Mus musculus with 3 samples.

Results

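The genes described here encode the proteins of the cytosolic ribosome, and their RNA was followed across 5 cell classes of the aged mouse hippocampus. They were chosen by symbol: Rpl or Rps followed by a number, with Rplp0, Rplp1, Rplp2 and Rpsa. This took in 83 of the 31053 genes of the count tables, 51 of the large subunit and 32 of the small one. Single hippocampal cells of 2-year-old wild-type C57BL/6 mice were released with papain (about 20 units/ml), myelin was removed with beads, and 10x Chromium 3′ libraries were counted in UMIs (unique molecular identifiers). There were 3 libraries of 1 group, called replicates 1, 2 and 3, with no treatment and no younger animals; the title of replicate 3 gives 25 months. The series text names several hippocampi without tying animals to libraries, so the spread between libraries may be partly technical.

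A ribosome is built from a small subunit, which reads the messenger RNA, and a large subunit, which joins amino acids. Nearly every subunit protein is present once per ribosome, and the messages for them commonly begin with a run of pyrimidines that places their translation under mTOR control. Some of the genes have a paralog (Rpl22 and Rpl22l1, Rps27 and Rps27l), whose product can take the place of the other. The RNA of these genes is among the most abundant in most cells, so it takes up a visible share of all UMIs.

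Cell classes were set by detection of all 3 markers of a class in a barcode: Cx3cr1, P2ry12 and C1qa for microglia, Cldn5, Flt1 and Pecam1 for endothelial cells, Ccdc153, Tmem212 and Foxj1 for ependymal cells, Pdgfra, Cspg4 and C1ql1 for oligodendrocyte precursor cells (OPC), and Slc1a2, Aqp4 and Gja1 for astrocytes. The libraries of replicates 1, 2 and 3 totalled 45716237, 7185668 and 40377042 UMIs in 7241, 1062 and 6456 barcodes, and 4308, 577 and 3241 of those barcodes fell into a class. The OPC class had 124, 10 and 79 barcodes in replicates 1, 2 and 3. The ependymal class had 77 and 163 in replicates 1 and 3, and its 8 barcodes in replicate 2 were not used. Any 2 libraries shared between 2 and 12 barcode sequences. Further markers that the class rule did not use matched the labels: the median further marker was detected in 91.1% to 100% of OPC barcodes, 97.8% to 99.3% of microglial, 93.0% to 94.1% of endothelial, 89.9% to 93.7% of astrocyte and, in the used libraries, 79.2% to 83.4% of ependymal barcodes. Markers of other classes were not absent. The median further astrocyte marker was also detected in 59.5% to 61.0% of ependymal barcodes in the used libraries, and in 40.0% to 65.8% of OPC barcodes. The median globin gene was detected in 40.1% to 54.2% of barcodes in the used profiles of replicates 2 and 3, and in 10.0% to 15.3% in replicate 1. Needing 3 detected markers favours barcodes with many UMIs in every class.

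Sequences around the annotated start are shown for Rpl13, which stood furthest above the total in OPC, and for Rps27, its paralog Rps27l and the paralog Rpl22l1, which carry the paralog contrasts described below. Each line gives 100 bases, 80 before and 20 from the annotated start on, of RefSeq on GRCm38.p6, read on the gene's strand from 5′ to 3′. Capitals mark 3 motifs, which may overlap: the pyrimidine run CTTTC, the related run CTTCC on the gene strand, and the ETS-type motif CCGGAA on either strand.
Rpl13 (chr8:123102270-123102369, plus strand): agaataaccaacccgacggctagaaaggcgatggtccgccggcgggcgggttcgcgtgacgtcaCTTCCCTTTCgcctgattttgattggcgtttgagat
Rps27 (chr3:90213629-90213728, minus strand): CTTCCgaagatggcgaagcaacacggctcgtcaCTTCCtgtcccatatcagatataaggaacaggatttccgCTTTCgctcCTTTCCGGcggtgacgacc
Rps27l (chr9:66946006-66946105, plus strand): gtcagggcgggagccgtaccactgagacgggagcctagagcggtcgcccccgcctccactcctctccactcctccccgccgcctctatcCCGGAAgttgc
Rpl22l1 (chr3:28805428-28805527, plus strand): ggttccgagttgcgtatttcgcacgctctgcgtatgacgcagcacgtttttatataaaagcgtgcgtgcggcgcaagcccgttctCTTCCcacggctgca

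Promoter windows were found for 63 of the 83 genes. CTTTC on the gene strand, from 10 bases before the start to 25 after it, was present in 23.8% of them and in 5.12% of all 27025 genes with a window. CTTCC in the same place was present in 22.2% of them and in 8.48% of all. CCGGAA on either strand, anywhere from 250 bases before to 50 after the start, was present in 55.6% of them and in 16.7% of all. A match is a run of letters and not a shown binding site.

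Ribosomal protein RNA took the largest share of UMIs in microglia and the smallest in astrocytes. It made up 16.05%, 16.22% and 15.39% of all microglial UMIs in replicates 1, 2 and 3. In endothelial cells it made up 11.71%, 9.685% and 10.36%. In ependymal cells it made up 8.34% in replicate 1 and 6.948% in replicate 3. In OPC it made up 7.972%, 4.248% and 6.425%, and in astrocytes 3.853%, 3.913% and 4.523%. The class means were 15.89% ± 0.44 for microglia, 10.59% ± 1.03 for endothelial cells, 6.22% ± 1.87 for OPC and 4.10% ± 0.37 for astrocytes (SD, n = 3 libraries each), and 7.64% ± 0.98 for ependymal cells (SD, n = 2). Every microglial value lay above every endothelial one, and every endothelial value lay above those of the other 3 classes. The OPC range overlapped both the ependymal and the astrocyte range, while ependymal values lay above all astrocyte values. Within libraries, OPC lay above astrocytes in 3 of 3 and below ependymal cells in 2 of 2, differences that so few libraries cannot test singly. Class labels were then permuted within each library. The spread between class shares gave p = 6.94e-05 in an exact permutation test over 14 profiles, the smallest value these permutations can give.

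**Figure D1:**
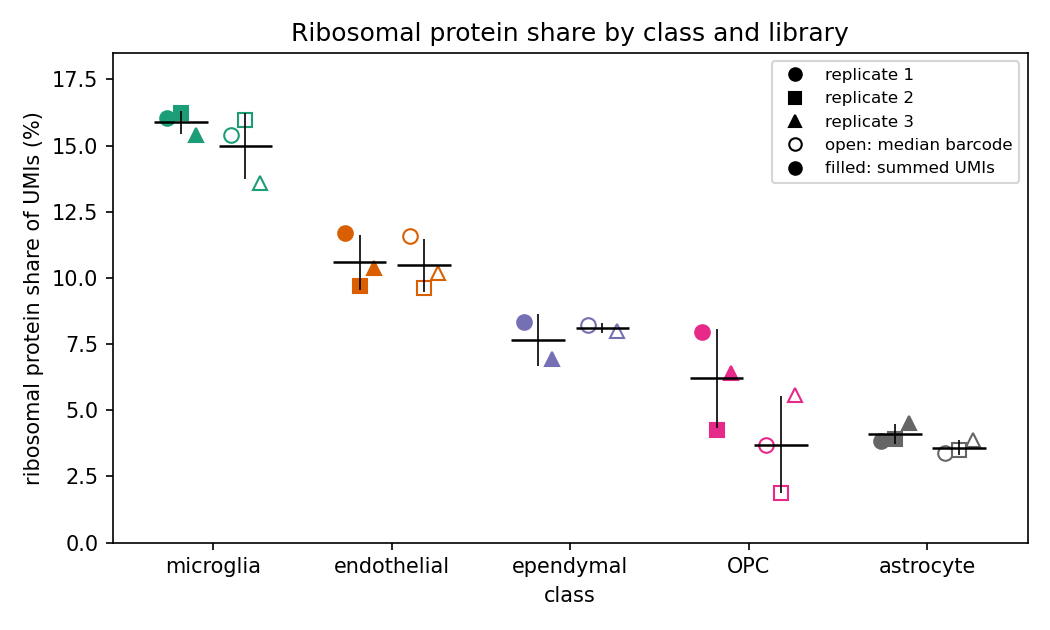
Share of UMIs from ribosomal protein genes (%, y axis) by class. Filled symbols are summed UMIs of a library and open symbols the median barcode; lines show mean ± SD over libraries. Microglia lie highest (15.39% to 16.22%), and the OPC values drop when the median barcode is taken.

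The share also moved with depth inside some classes. The median OPC barcode held 2.187% ribosomal protein UMIs among the 63 barcodes of 2000 to 4000 UMIs and 8.121% among the 60 barcodes of 8000 to 16000. In microglia the medians in the same windows were 9.985% and 16.32%, in endothelial cells 11.19% and 10.74%, and in astrocytes 2.292% and 3.989%. In ependymal cells the deeper window was the lower one, with 8.897% and 6.701%. Below 2000 UMIs the medians were 4.797% in 351 astrocyte barcodes, higher than in any deeper window of that class, and 9.305% in 95 ependymal barcodes. The median over OPC barcodes was 3.70% ± 1.84 and that over astrocyte barcodes 3.59% ± 0.27 (SD, n = 3 libraries each), so by this measure the classes lay side by side. With each barcode thinned to 2000 UMIs, the mean share was 15.36% in microglia, 10.68% in endothelial cells, 7.916% in ependymal cells, 4.933% in OPC and 3.647% in astrocytes. Shallower barcodes were left out: 233, 20 and 98 of the astrocytes in replicates 1, 2 and 3. Of the ependymal barcodes, 27 and 62 were left out in replicates 1 and 3. Random thinning leaves the expected share of a barcode unchanged, so these means do not test the part of depth. In replicate 2 the thinned OPC value, 3.14%, lay below the astrocyte value of 3.50%. Malat1, a nuclear RNA, made up 9.76% of OPC UMIs, 6.10% of astrocyte, 3.28% of endothelial, 2.35% of ependymal and 1.73% of microglial UMIs. In ependymal barcodes below 2000 UMIs, Malat1 made up 0.446% and the median mitochondrial share was 0.661%. From 2000 to 4000 UMIs (48 barcodes) these values were 0.659% and 0.393%. They were 2.551% and 4.307% from 4000 to 8000, and 2.961% and 5.279% from 8000 to 16000. Shallow and deep ependymal barcodes thus differed in more than depth, and the class holds both. Across barcodes of a class within a library, the ribosomal protein share and the Malat1 share had Spearman correlations of -0.326 to -0.826; both are shares of the same UMIs. Mitochondrially encoded UMIs were 11.04% in astrocytes and 2.78% in microglia, and the astrocyte share without them was 4.61%. The part of these values in the class differences was not tested.

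**Figure D2:**
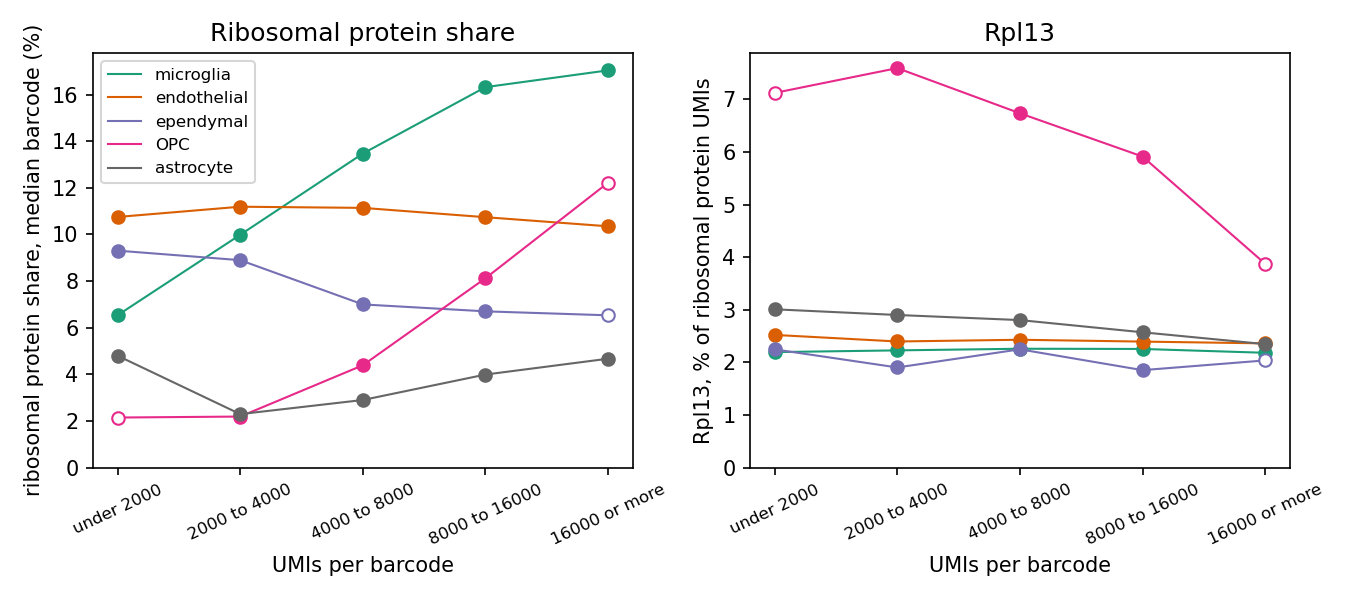
Left, median ribosomal protein share of a barcode (%) by UMIs per barcode. Right, Rpl13 as a percentage of ribosomal protein UMIs in the same windows. Open symbols rest on fewer than 20 barcodes. The OPC line climbs with depth on the left, and on the right it lies above every other class in each window.

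Of the 83 genes, 80 passed the filter on low counts. The other 3, Rpl3l, Rpl10l and Rpl39l, are paralogs described below. UMIs were summed per library and class, scaled by TMM (a factor per profile that balances the bulk of all genes), and each class was tested against the mean of the other 4 by edgeR's quasi-likelihood test, with p-values adjusted over all 14103 genes (Benjamini-Hochberg) and a threshold of 0.05. In microglia 79 of the 80 rose, with a median log2 change of 1.97; of all genes tested, 58.9% were called, 32.5% higher and 26.5% lower, around a median of 0.00. In endothelial cells 73 rose, with a median of 0.78, while of all genes 56.5% were called, 32.6% higher and 23.9% lower. In astrocytes all 80 fell, with a median of -1.22, while of all genes 49.9% were called, 26.4% higher and 23.6% lower. In OPC 76 fell and 1, Rpl13, rose; the median was -1.09, while of all genes 44.7% were called, 23.1% higher and 21.6% lower. In ependymal cells 25 fell and none rose, with a median of -0.41; of all genes 39.9% were called, 22.1% higher and 17.9% lower, around a median of -0.19. The ependymal count was 3 without replicate 1 and 2 without replicate 3, when a single ependymal profile is left and is taken to vary like the others. The classes are compared within the same libraries and each serves in the mean of the others, so these 5 comparisons are not independent.

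**Figure D3:**
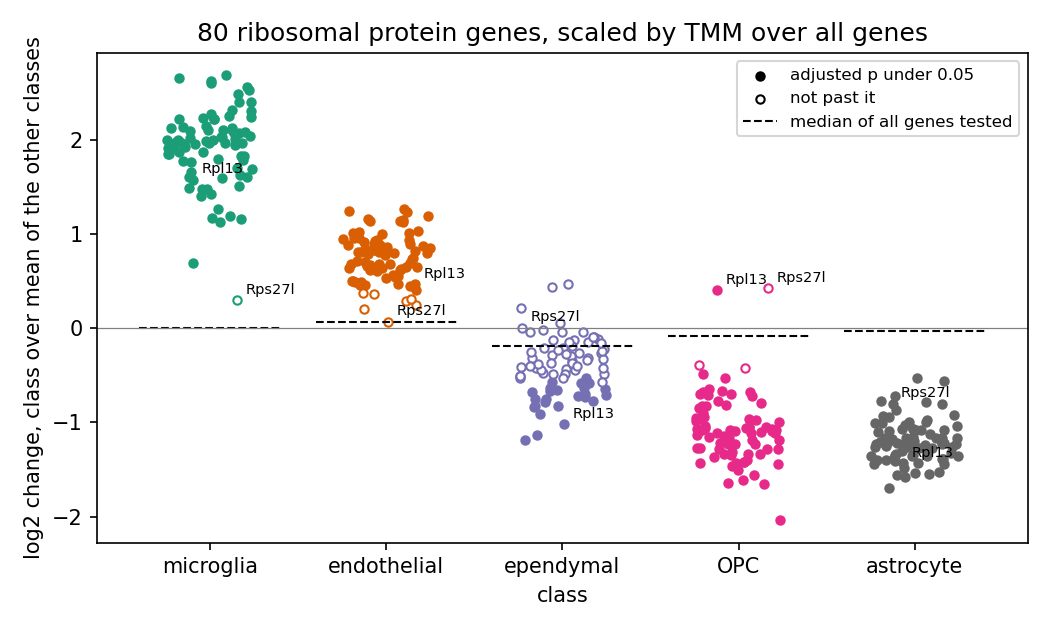
Log2 change of each of 80 ribosomal protein genes (y axis) in a class over the mean of the other classes, scaled by TMM. Filled points passed adjusted p under 0.05 and dashed lines mark the median of all genes. Microglial points centre at 1.97 and astrocyte points at -1.22; Rps27l and Rpl13 stand apart in OPC.

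Genes of the same system that the symbol rule does not take in were set beside these. Fau, Rack1 and Rpl36al also encode ribosome proteins. Each of them rose in microglia and fell in astrocytes and in OPC, and Fau and Rack1 rose in endothelial cells; Fau changed by 2.87 ± 0.15 in microglia (log2 ± SE, adjusted p = 1.87e-14 by edgeR's quasi-likelihood test) and by -1.31 ± 0.19 in astrocytes (adjusted p = 2.61e-06). Of 18 other translation genes with pyrimidine-led messages, 17 rose in microglia and 13 in endothelial cells, while 15 fell in astrocytes, 12 in OPC (where 1 rose) and 6 in ependymal cells. The shares of all genes called higher and lower were 32.5% and 26.5% in microglia and 32.6% and 23.9% in endothelial cells. In astrocytes they were 26.4% and 23.6%, in OPC 23.1% and 21.6%, and in ependymal cells 22.1% and 17.9%. Eef1a1, an elongation factor, changed by 2.21 ± 0.17 in microglia and by -1.58 ± 0.21 in astrocytes, and Eef2 by 1.62 ± 0.15 and -0.87 ± 0.17 (all 4 passed). Of 30 ribosome biogenesis genes, 20 rose and none fell in microglia, 17 fell and 1 rose in astrocytes, and 7 rose and 7 fell in endothelial cells; Gnl3, a nucleolar GTPase, changed by 2.67 ± 0.16 in microglia (adjusted p = 2.38e-13).

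The 77 tested genes for mitochondrial ribosomal proteins did not follow the cytosolic set outside OPC. Of them, 12 rose and 13 fell in microglia, and 10 rose and 6 fell in astrocytes. In endothelial cells 8 rose and 16 fell, and in ependymal cells 20 rose and 3 fell. In OPC 3 rose and 20 fell, the direction of the cytosolic set. Their median log2 change was -0.09 in microglia, 0.06 in astrocytes, -0.10 in endothelial cells, 0.35 in ependymal cells and -0.21 in OPC. Of 14 genes that control ribosomal protein synthesis, 8 rose and 1 fell in microglia, 6 rose and 2 fell in endothelial cells, 1 rose and 8 fell in ependymal cells, 3 rose and 3 fell in OPC, and 2 rose and 3 fell in astrocytes. Of all genes, 32.5% were called higher and 26.5% lower in microglia, and 22.1% higher and 17.9% lower in ependymal cells. The same shares were 32.6% and 23.9% in endothelial cells, 23.1% and 21.6% in OPC, and 26.4% and 23.6% in astrocytes. Myc, a transcription factor known to raise ribosome production, changed by 4.18 ± 0.17 in microglia (adjusted p = 2.7e-17, edgeR's quasi-likelihood test). It fell by 3.62 ± 0.24 in endothelial cells (adjusted p = 1.63e-12, same test). The part of Myc in the ribosomal protein differences was not tested. Larp1, which binds pyrimidine-led messages, changed by 1.26 ± 0.16 in microglia and by -0.01 ± 0.17 in astrocytes, where it did not pass. Dissociation and immediate early genes, a list of 10, summed to 33800 to 41410 CPM (library-scaled UMI counts) in endothelial cells, 14630 and 24010 in ependymal cells, 11810 to 16720 in microglia, 5873 to 6862 in OPC and 1469 to 2895 in astrocytes; their part in the ribosomal protein differences was not tested.

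The second question was which single genes left step with the rest. For this the summed ribosomal protein UMIs of a profile were taken as its library size, so that a change of 0 means moving with the total. Against this scale 30 of the 80 genes were called in microglia (11 higher, 19 lower), 23 in OPC (11 higher, 12 lower), 17 in endothelial cells (9 higher, 8 lower), 13 in astrocytes (10 higher, 3 lower) and 9 in ependymal cells (5 higher, 4 lower). Of all genes tested, 80.9% were called on this scale in microglia (8.94% higher, 71.9% lower), 57.6% in OPC (50.7% higher, 6.91% lower) and 57.5% in endothelial cells (14.7% higher, 42.9% lower). In astrocytes 73.1% were called (68.8% higher, 4.37% lower) and in ependymal cells 35.2% (27.8% higher, 7.34% lower). Those shares are set by the scale itself, which follows the ribosomal protein total, and are no yardstick for the genes that make it up. The p-values were adjusted over all 14103 genes. Where most of these pass, the adjusted p of a gene near the threshold lies close to its unadjusted p. The counts on this scale are therefore corrected only mildly for the testing of 80 genes. There were 29 genes called in no class, 21 in 1 class, 21 in 2, 7 in 3 and 2 in 4. Most changes were small: 77 of 80 lay within 0.5 log2 in astrocytes and in endothelial cells, 74 in ependymal cells, 71 in OPC and 63 in microglia.

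**Figure D4:**
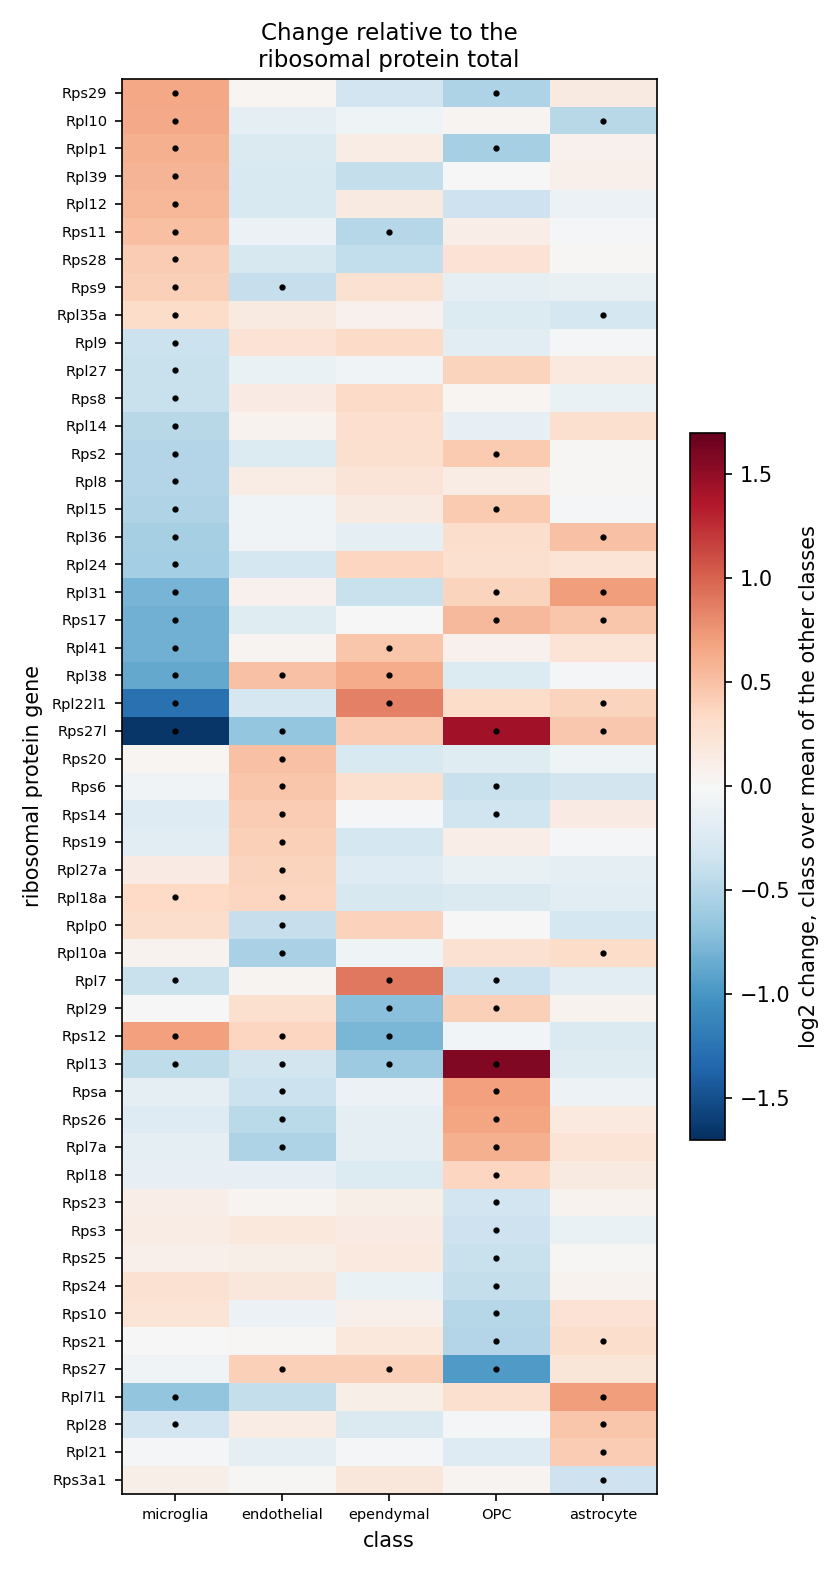
Log2 change relative to the ribosomal protein total (colour) for the genes called in at least 1 class (rows), by class (columns); dots mark adjusted p under 0.05. The deepest colours are Rpl13 and Rps27l in OPC and Rps27l and Rpl22l1 in microglia.

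Rpl13, a large subunit protein gene (ENSMUSG00000000740, chr8:123102350-123105244, plus strand, mm10), was the member furthest above the total in OPC. It supplied 5.597%, 7.643% and 6.569% of OPC ribosomal protein UMIs in replicates 1, 2 and 3, against 1.964% to 2.788% in all 11 profiles of the other classes. The ranges did not overlap. Relative to the total it changed by 1.57 ± 0.12 (log2 ± SE, adjusted p = 1.2e-11, edgeR's quasi-likelihood test), higher in 3 of 3 libraries. In OPC windows of 2000 to 4000, 4000 to 8000 and 8000 to 16000 UMIs it supplied 7.596%, 6.737% and 5.914%, against 1.852% to 2.901% in the other classes. On the scale of all genes, Rpl13 was the only one of the 80 called higher in OPC (0.41 ± 0.16, adjusted p = 0.0396), with 4462, 3246 and 4221 CPM in OPC against 3637, 3186 and 3477 in microglia, before TMM scaling. The test fits counts, so library signs were read apart from it, on log2 of the count plus 0.5 over the TMM size. By these, Rpl13 was above the mean of the other classes in 2 of 3 libraries. A gene model on the same strand, Gm20388, spans this locus.

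Rps27 and its paralog Rps27l, small subunit genes on chr3:90212522-90213651 and chr9:66946086-66949516 (mm10), moved in opposite directions in OPC. Rps27 supplied 0.771%, 0.871% and 0.839% of OPC ribosomal protein UMIs, against 1.203% to 2.454% elsewhere. It fell by 0.97 ± 0.15 on the log2 scale relative to the total (adjusted p = 4.65e-06). Rps27l, known as a target of p53, supplied 0.569%, 0.355% and 0.412% in OPC, against 0.068% to 0.295% elsewhere, and changed by 1.43 ± 0.18 (adjusted p = 8.4e-08). Neither range overlapped that of the other classes. In replicate 2, however, the OPC values rest on 27 UMIs of Rps27 and 11 of Rps27l. The distance of Rps27l from the other classes there is a matter of few UMIs. In microglia Rps27l supplied only 0.088%, 0.068% and 0.092%, below every other profile, and fell by 1.65 ± 0.19 (adjusted p = 5.67e-09). As a share of both paralogs, Rps27l made up 42.4%, 29.0% and 32.9% of UMIs in OPC, 14.6% and 14.7% in ependymal cells, 10.9% to 17.1% in astrocytes, 4.79% to 9.71% in endothelial cells and 3.57% to 7.11% in microglia. Rps27rt, a close copy outside the symbol rule, took 3.37% to 6.50% of the summed Rps27 and Rps27rt UMIs on average per class, and reads of such copies may be split between them.

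Rpl22l1 and Rpl22 form the other large paralog contrast. Rpl22l1 (chr3:28805436-28807424, plus strand, overlapped by the antisense model Gm33051) supplied 0.214%, 0.196% and 0.210% of microglial ribosomal protein UMIs, against 0.322% to 0.687% elsewhere, and fell by 1.26 ± 0.16 relative to the total (adjusted p = 7.18e-08, edgeR's quasi-likelihood test). In ependymal cells it supplied 0.687% and 0.668%, above every profile of the other classes, and changed by 0.85 ± 0.18 (adjusted p = 0.000268); without replicate 3 this was 0.83 with adjusted p = 0.0501. Rpl22 itself was called in no class, with changes between -0.18 and 0.20. Of both together, Rpl22l1 made up 22.4% ± 0.33 in microglia, 30.5% ± 2.3 in endothelial cells, 41.8% ± 3.5 in OPC and 43.2% ± 0.37 in astrocytes (SD, n = 3 libraries each), and 48.5% and 43.7% in ependymal cells. The microglial and endothelial ranges did not overlap each other or the rest, while the ependymal range overlapped that of OPC and lay just above that of astrocytes (42.7% to 43.4%).

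**Figure D5:**
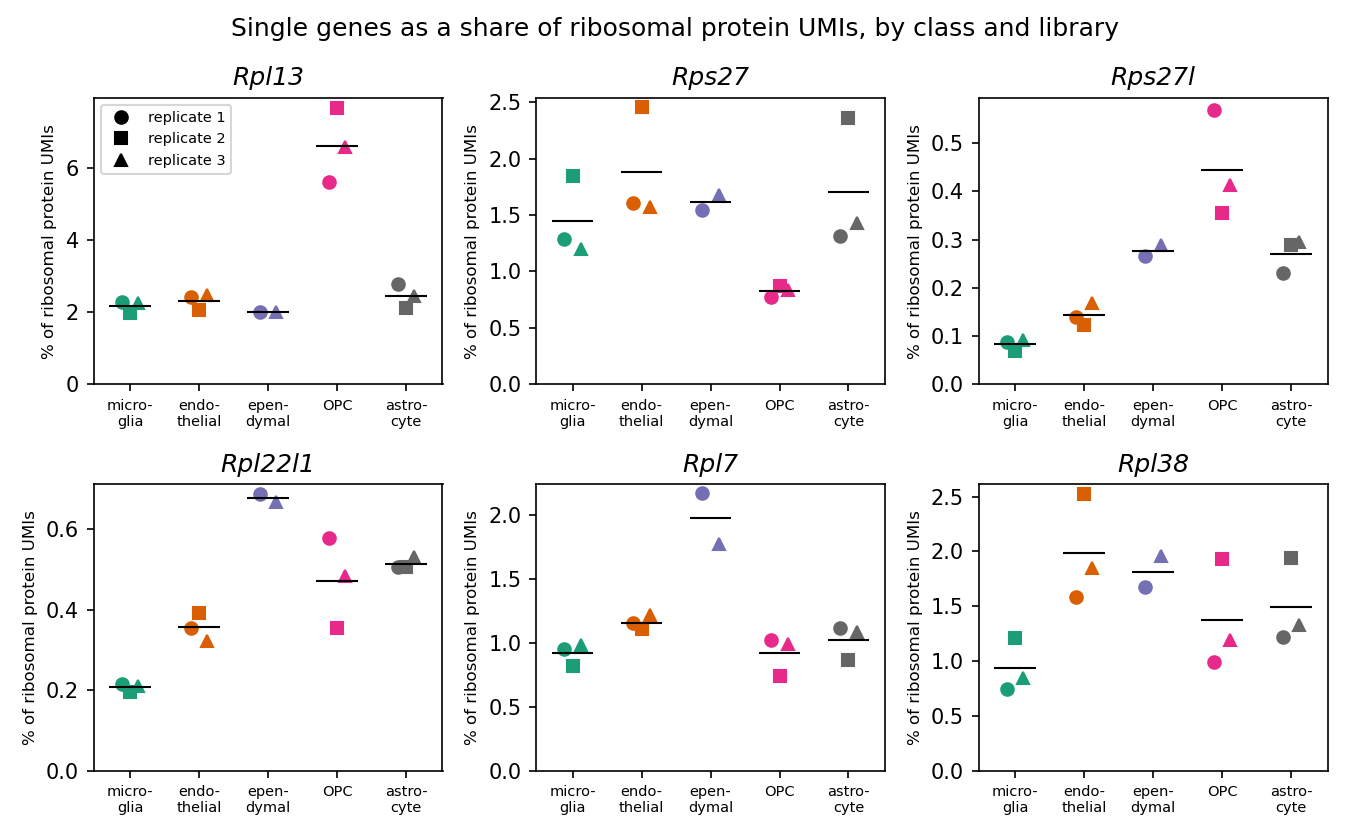
Percentage of ribosomal protein UMIs (y axis, from 0) supplied by 6 genes in each class; symbols are libraries and lines class means. Rpl13 in OPC (5.597% to 7.643%) and Rps27l in microglia (0.068% to 0.092%) lie clear of every other class, while for Rps27 and Rpl38 replicate 2 sits high in several classes.

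The other paralogs were rare. Rpl7l1 had 830 UMIs in microglia, 1678 in endothelial cells, 49 in ependymal cells, 63 in OPC and 439 in astrocytes, and in astrocytes it changed by 0.71 ± 0.20 relative to the total (adjusted p = 0.00221; without replicate 1, 0.57 and 0.085). Rpl3l, a gene best known from striated muscle, had 15 UMIs in astrocytes (1.22 CPM, exact 95% binomial interval 0.682 to 2.01). It had 1 in endothelial cells and 0 in microglia, ependymal cells and OPC. Rpl39l, best known from male germ cells, had 55 UMIs in microglia (4.004 CPM, interval 3.02 to 5.21), 63 in endothelial cells (1.67 CPM, interval 1.29 to 2.14), 1 each in ependymal cells and astrocytes, and 0 in OPC. Rpl10l had 0 UMIs in every class; 3 UMIs, taken as the limit for a count of 0, would be 0.0797 CPM in endothelial cells and 2.72 CPM in ependymal cells, and the exact 95% intervals reach 0.0980 and 3.34 CPM. These intervals cover counting error only.

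In microglia the genes furthest above the total were Rps12 (0.69 ± 0.13, adjusted p = 1.76e-05), Rps29 (0.66 ± 0.12, adjusted p = 1.1e-05) and Rpl10 (0.64 ± 0.13, adjusted p = 6.7e-05, all by edgeR's quasi-likelihood test). Rps12 supplied 2.194%, 1.995% and 2.192% of microglial ribosomal protein UMIs, above the 0.949% to 1.834% of the other classes. Rps29 supplied 3.284%, 5.156% and 3.237%, which overlapped the 1.625% to 3.608% of the other classes. Within every library its microglial value was the highest. Rpl10, which lies near the peptidyl transferase centre of the large subunit, supplied 1.470%, 1.635% and 1.573%, against 0.756% to 1.451% elsewhere. Rpl38, known in mouse development for its part in Hox translation, fell by 0.87 ± 0.14 (adjusted p = 1.6e-06). Its microglial values of 0.747%, 1.211% and 0.844% overlapped those of OPC (0.990%, 1.935% and 1.195%), and within every library the microglial value was the lowest of all classes. Rpl36, whose change in astrocytes is given below, supplied 0.821% to 0.920% in microglia, under the 1.019% to 1.806% of all others.

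The stalk proteins, which recruit elongation factors to the large subunit, did not move as a unit. Rplp1 changed by 0.61 ± 0.12 in microglia (adjusted p = 5.1e-05, edgeR's quasi-likelihood test) with 3.340% to 3.975% of ribosomal protein UMIs, and it fell by 0.56 ± 0.14 in OPC (adjusted p = 0.000831) with 1.612% to 1.975%; the other profiles ranged from 2.165% to 2.925%. Rplp0 fell by 0.39 ± 0.15 in endothelial cells (adjusted p = 0.0282), a call that ended without replicate 1 (-0.36, adjusted p = 0.163) or replicate 3 (-0.36, adjusted p = 0.202). Rplp2 was called in no class. Rpsa, a small subunit protein also known as a laminin receptor, changed by 0.70 ± 0.14 in OPC (adjusted p = 8.03e-05), where it supplied 1.831%, 1.483% and 1.592%, against 0.884% to 1.171% elsewhere. In endothelial cells it fell by 0.36 ± 0.14 (adjusted p = 0.0267), a call that ended without replicate 1 (-0.33, adjusted p = 0.2) or replicate 3 (-0.34, adjusted p = 0.225). Rps27a, a fusion of ubiquitin and a small subunit protein, was called in no class, with changes between -0.07 and 0.04.

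In endothelial cells Rps20 (0.50 ± 0.13), Rpl38 (0.49 ± 0.13) and Rps6 (0.48 ± 0.13) lay furthest above the total, with adjusted p of 0.00151, 0.00131 and 0.0033 in edgeR's quasi-likelihood test. Rps6, the small subunit protein phosphorylated downstream of mTOR, supplied 1.103%, 0.992% and 0.992%, against 0.548% to 0.961% in the other classes. Rps27l, Rpl10a and Rpl7a fell by 0.66 ± 0.17, 0.56 ± 0.14 and 0.53 ± 0.15 (adjusted p = 0.00166, 0.0015 and 0.00268). Rps27l supplied 0.139%, 0.123% and 0.169%, above every microglial value (0.068% to 0.092%) and below those of the remaining classes. The mean it was set against includes OPC, with 0.355% to 0.569%. Rpl10a supplied 0.557% to 0.599%, below the 0.727% to 1.011% of all other profiles. Without replicate 3 the adjusted p was 0.0567 for Rps20 (0.48), 0.0567 for Rpl38 (0.47) and 0.123 for Rpl7a (-0.44), and without replicate 1 it was 0.0675 for Rps6 (0.45). The endothelial count of 17 was 5 without replicate 1 and 3 without replicate 3. Globin RNA, which red blood cells carry, made up 1.54% of endothelial UMIs and at most 0.101% on average in the other classes; its part in these values was not tested.

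In ependymal cells Rpl7 (chr1:16101295-16104662, minus strand) supplied 2.172% and 1.779% in replicates 1 and 3, against 0.742% to 1.218% in the other classes. It changed by 0.89 ± 0.15 relative to the total (adjusted p = 2.71e-05, edgeR's quasi-likelihood test), higher in 2 of 2 libraries. Rpl38 changed by 0.63 ± 0.15 (adjusted p = 0.00138; without replicate 3, 0.61 and 0.131). Rps12, Rpl29 and Rpl13 fell by 0.77 ± 0.17, 0.72 ± 0.18 and 0.61 ± 0.17 (adjusted p = 0.000615, 0.00234 and 0.00445). Rpl29 supplied 0.471% and 0.443%, against 0.651% to 0.918% elsewhere. Rpl13 supplied 2.005% and 2.008%, within the microglial range of 1.964% to 2.266%. The mean it was set against includes OPC, with 5.597% to 7.643%. With 1 ependymal profile left, the adjusted p was 0.0945 for Rps12 without replicate 3 (-0.73), 0.052 and 0.182 for Rpl29 without replicates 1 and 3 (-0.77 and -0.66), and 0.0647 and 0.145 for Rpl13 (-0.62 and -0.61). The ependymal count of 9 was 4 without replicate 1 and 1 without replicate 3.

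In astrocytes the changes had the narrowest spread over the 80 genes (SD 0.23 log2, against 0.26 to 0.42 in the other classes). Rpl31 supplied 0.847%, 0.722% and 0.673%, and changed by 0.71 ± 0.14 (adjusted p = 6.5e-05, edgeR's quasi-likelihood test); the range of the other classes, 0.298% to 0.742%, overlapped it. Rpl36 changed by 0.50 ± 0.13 (adjusted p = 0.00121). Its 1.432%, 1.793% and 1.512% overlapped the OPC values of 1.218%, 1.806% and 1.295%, and in replicate 2 OPC lay higher. Rpl10, Rps3a1 and Rpl35a fell by 0.47 ± 0.14, 0.35 ± 0.13 and 0.30 ± 0.13 (adjusted p = 0.00441, 0.0198 and 0.0426). Rps3a1 supplied 1.337%, 1.171% and 1.363%, below the 1.546% to 1.846% of every other profile. The Rps3a1 call ended without any 1 library (-0.31 to -0.37, adjusted p = 0.0647 to 0.13), as did that of Rpl35a (-0.27 to -0.32, adjusted p = 0.0562 to 0.259), and that of Rpl10 without replicate 3 (-0.43, adjusted p = 0.0885). The astrocyte count of 13 was 7, 8 and 5 without replicates 1, 2 and 3.

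In OPC the third gene below the total, after Rps27 and Rplp1, was Rps29 (-0.52 ± 0.13, adjusted p = 0.00129 by edgeR's quasi-likelihood test; without replicate 3, -0.44 and 0.0835). The OPC count of 23 was 11 without replicate 1 and 7 without replicate 3. Of the 32 small subunit genes tested, 5 were higher and 10 lower in OPC, and of the 48 large subunit genes 6 were higher and 2 lower; the median changes were -0.03 and 0.01. The large subunit supplied 60.1% ± 1.2 of ribosomal protein UMIs in OPC, 57.6% ± 0.22 in astrocytes, 56.1% ± 0.58 in endothelial cells and 56.0% ± 0.37 in microglia (SD, n = 3 libraries each), and 57.9% and 58.2% in ependymal cells. The spread between classes gave p = 0.000208 in the exact permutation test within libraries, and Rpl13 is itself part of the OPC value. With Rpl13 left out of both sums, an alternative chosen after seeing the data, the large subunit supplied 57.2% ± 0.78 in OPC, 56.6% ± 0.27 in astrocytes, 55.1% ± 0.70 in endothelial cells and 55.0% ± 0.45 in microglia (SD, n = 3 libraries each), and 57.0% and 57.3% in ependymal cells. OPC values then overlapped those of ependymal cells and astrocytes, and the same exact permutation test over all classes gave p = 0.00264. Neuronal markers, a list of 5, summed to 597 to 1288 CPM in OPC, 238 to 292 in endothelial cells, 355 to 612 in ependymal cells, 23.4 to 178 in astrocytes and 6.67 to 11.2 in microglia. In OPC and endothelial cells single genes made up most of the sum: Meg3 gave 498.7 to 1137 CPM in OPC, where Rbfox3 and Stmn2 were at 0 and Snap25 gave 56.7 to 150.7, and Stmn2 gave 236.3 to 289.5 CPM in endothelial cells; their part in the OPC values was not tested.

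Libraries left their own mark on the same genes. In replicate 2, 8 genes differed from the mean of the other libraries with 1 sign in all 4 of its classes and by a median of at least 0.5 log2 over them: Rpl13a, Rpl27, Rps28, Rpl35, Rpl38, Rps29 and Rps27 were higher and Rps18 was lower. Rpl13a was the furthest, with a median difference of 1.34, and Rpl27 followed with 1.26. Replicate 1 had 3 such genes (Rpl13a, Rpl27 and Rpl35) and replicate 3 had 1 (Rps28), all lower; each was set against a mean that, in 4 of its 5 classes, holds replicate 2, where the same gene was among those listed as higher. The order of the 80 genes within a profile had a median Spearman correlation of 0.932 between libraries of 1 class and of 0.820 between classes of 1 library.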

How the data were processed

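The deposited tables hold raw UMI counts per gene and barcode, made by the authors with Cell Ranger on mm10, per the submitters' processing notes; no version of it is given there. Hyphens in symbols had become dots. Barcodes were kept with at least 500 UMIs, 300 genes and at most 20% mitochondrial UMIs (6412, 954 and 5065). Scrublet in scanpy 1.11.5 (assumed rate 0.06) marked 190, 8 and 133 doublets, which were removed, as were 223, 36 and 337 barcodes with the markers of more than 1 class. UMIs were summed per library and class (at least 10 barcodes, 14 profiles) and tested with edgeR 4.0.16 (R 4.3.3) with filterByExpr and the library as a block, on TMM sizes or on ribosomal protein totals. Classes of a library come from 1 suspension, which is why the library is a block. Standard errors derive from the quasi-likelihood F. Shares were tested by exact permutation within libraries; 3 against 3 libraries were not tested singly. The test was also run on simulated counts in which chosen genes changed in astrocytes only and the classes were otherwise alike. The classes of the data differ widely, so that run does not cover the fit on ribosomal protein totals. Genes were named by rule: in each class the 3 highest and 3 lowest called genes of at least 100 UMIs whose sign held in each library, plus paralogs, stalk proteins, Rpsa and Rps27a. The members and lists were chosen with earlier results of these data known. Identifiers and coordinates are from GENCODE on mm10. A further gene of the lists is not reported here.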

Additional observations from a re-analysis of the deposited data

How the results depend on the processing

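Among the single genes followed, no call reversed under any alternative run. The order of OPC and astrocyte shares in replicate 2 did reverse. OPC lay below astrocytes there by the median barcode (1.877% against 3.488%) and after thinning (3.14% against 3.50%). Shares of UMIs moved by more than the spread between libraries in these cases: to 4.74% in astrocytes under a stricter barcode filter; to 9.34% and 9.17% in ependymal cells with 2 of 3 markers or without barcodes holding 2 markers of another class; to 14.99%, 3.70% and 3.59% in microglia, OPC and astrocytes by the median barcode; to 16.34% and 4.61% in microglia and astrocytes without mitochondrial UMIs; and to 15.36% and 3.65% in the same classes after thinning. The ependymal count of 25 genes was 10 with RLE scaling (2 higher, 8 lower), 13 with no scaling factor (3 higher, 10 lower), 6 with 2 of 3 markers and 7 after thinning (2 higher, 5 lower), and the OPC count of 77 was 44 with no scaling factor. Without the replicate block the ependymal count was 9, and out of step 5 in ependymal cells and 14 in OPC. By DESeq2, genes out of step numbered 35 in endothelial cells, 25 in ependymal cells, 38 in OPC and 25 in astrocytes. They numbered 15 in ependymal cells with at least 20 barcodes per profile, 15 in OPC with no filter, and 13 in OPC and 8 in astrocytes after thinning. Leaving out 1 library gave 2 to 30 ependymal calls, and out of step 3 to 14 in endothelial cells, 1 to 10 in ependymal cells, 7 to 17 in OPC, 5 to 8 in astrocytes and 20 to 29 in microglia. The causes were not tested. Thinned fits were added after seeing the data. Of the single genes' alternatives, 468 kept the call and 65 lost it. Rpl13, Rps27l, Rps27, Rpsa and Rplp1 in OPC kept theirs under all run, as did Rps27l, Rpl22l1, Rpl38, Rps12, Rps29 and Rpl10 in microglia. The OPC profile of replicate 2 rests on 10 barcodes and 3101 ribosomal protein UMIs.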
